A study of Mus musculus with 4 samples.

Results

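Organoids grown from intestinal polyps of ApcMin mice carry a defect in Apc, the scaffold that normally marks beta-catenin for destruction, and the 10 genes described here are readouts, brakes and stem cell partners of the Wnt pathway that Apc restrains. They were chosen by name, but with earlier results of these data known. They are Lgr5, Ascl2, Axin2, Nkd1, Wif1, 5730593N15Rik (Notum), Sox9, Cd44, Myc and Dkk2. They were read by 11 of the 23473 probes on the array, or 10 of 16446 named genes. Notum was read by 2 probes and each other gene by 1. RNA of 4 organoid cultures was hybridized to 1 array each. The 5-Aza-CdR culture had received 1 μM 5-aza-2′-deoxycytidine for the first 24 hours and was harvested at day 4, and its reference was an untreated control culture. The Dnmt1 knockdown culture carried a lentiviral shRNA against Dnmt1 and was harvested 9 days after infection. Its reference, labelled Mock control, carried the empty lentiviral vector, and transduced cells were selected with puromycin. The ApcMin background was shared by all 4 cultures. The paper gives a medium with EGF and Noggin but no R-spondin for tumor organoids, and does not state the medium used during lentiviral infection. Whether the 4 cultures came from the same mouse is not given in the sources used here.

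In the canonical pathway, Wnt ligands bound to Frizzled and LRP receptors stop the complex of Apc, Axin and GSK3 from degrading beta-catenin, which then drives target genes together with TCF/LEF factors. Several of those targets act as brakes on the pathway itself, inside the cell or as secreted proteins. In the intestinal crypt this program keeps stem cells and Paneth cells in place, and loss of Apc in a crypt cell is the classic first step to an adenoma.

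Each culture was read on a single array, so the differences carry no replicate error and no p-values are reported. Intensities are the values the authors deposited, which set the median of the values on each array near 25. Log2 ratios are from spot signals after normexp background correction, with an offset of 50, and quantile normalization. The offset draws ratios of dim probes toward 0, so the fold in the deposited intensities is given beside it where they part. Calls of higher and lower required a 2-fold difference in the normalized values and detection on the brighter array. Probes of the same gene differed in log2 ratio with an SD of 0.21 for 5-Aza-CdR over untreated control. The SD was 0.15 for Dnmt1 knockdown over Mock control and 0.45 for Mock control over untreated control. This spread pools dim and bright probes and measures only how far probes disagree, not variation between replicate cultures. Intensities of different genes are not compared, since each probe binds with its own strength. In bulk RNA, fewer cells of a type and less RNA per cell cannot be told apart.

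Of the 10 genes, 1 was called higher after 5-Aza-CdR and 0 lower, where 0.921% of all 15640 detected genes were called higher and 0.607% lower. With Dnmt1 knockdown 0 were called in either direction, where 0.327% of 14393 genes were called higher and 0.139% lower. Between the control cultures, 1 of the 10 was called higher in the Mock control and 4 lower, where 3.8% of 15141 genes were called higher and 3.84% lower. In the deposited intensities 2 of the 10 were at least 2-fold higher after 5-Aza-CdR (Cd44 and Dkk2), where 6.05% of all genes were, and 0 lower, where 2.09% were. On that scale 0 were higher with Dnmt1 knockdown, where 5.91% of all genes were, and 3 lower (Wif1, Notum and Dkk2, the last with its empty knockdown value set to the lowest value of that array), where 0.813% were. For Mock control over untreated control 1 was higher and 6 lower, where 7.1% and 26.6% were. The single gene past the limit after 5-Aza-CdR was Dkk2, and those lower in the Mock control were Nkd1, Wif1, Notum and Lgr5, with Cd44 higher. The median log2 ratio of the 10 genes was -0.25 with 5-Aza-CdR, -0.11 with Dnmt1 knockdown and -0.46 for Mock control over untreated control, against -0.0033, -0.00093 and -0.02 for all detected genes. Mock control and untreated control differ in virus, puromycin and day of harvest, which cannot be told apart here. The Mock control array also serves as the lower term of the Dnmt1 knockdown comparison, and the untreated array as that of the 5-Aza-CdR comparison.

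**Figure D1:**
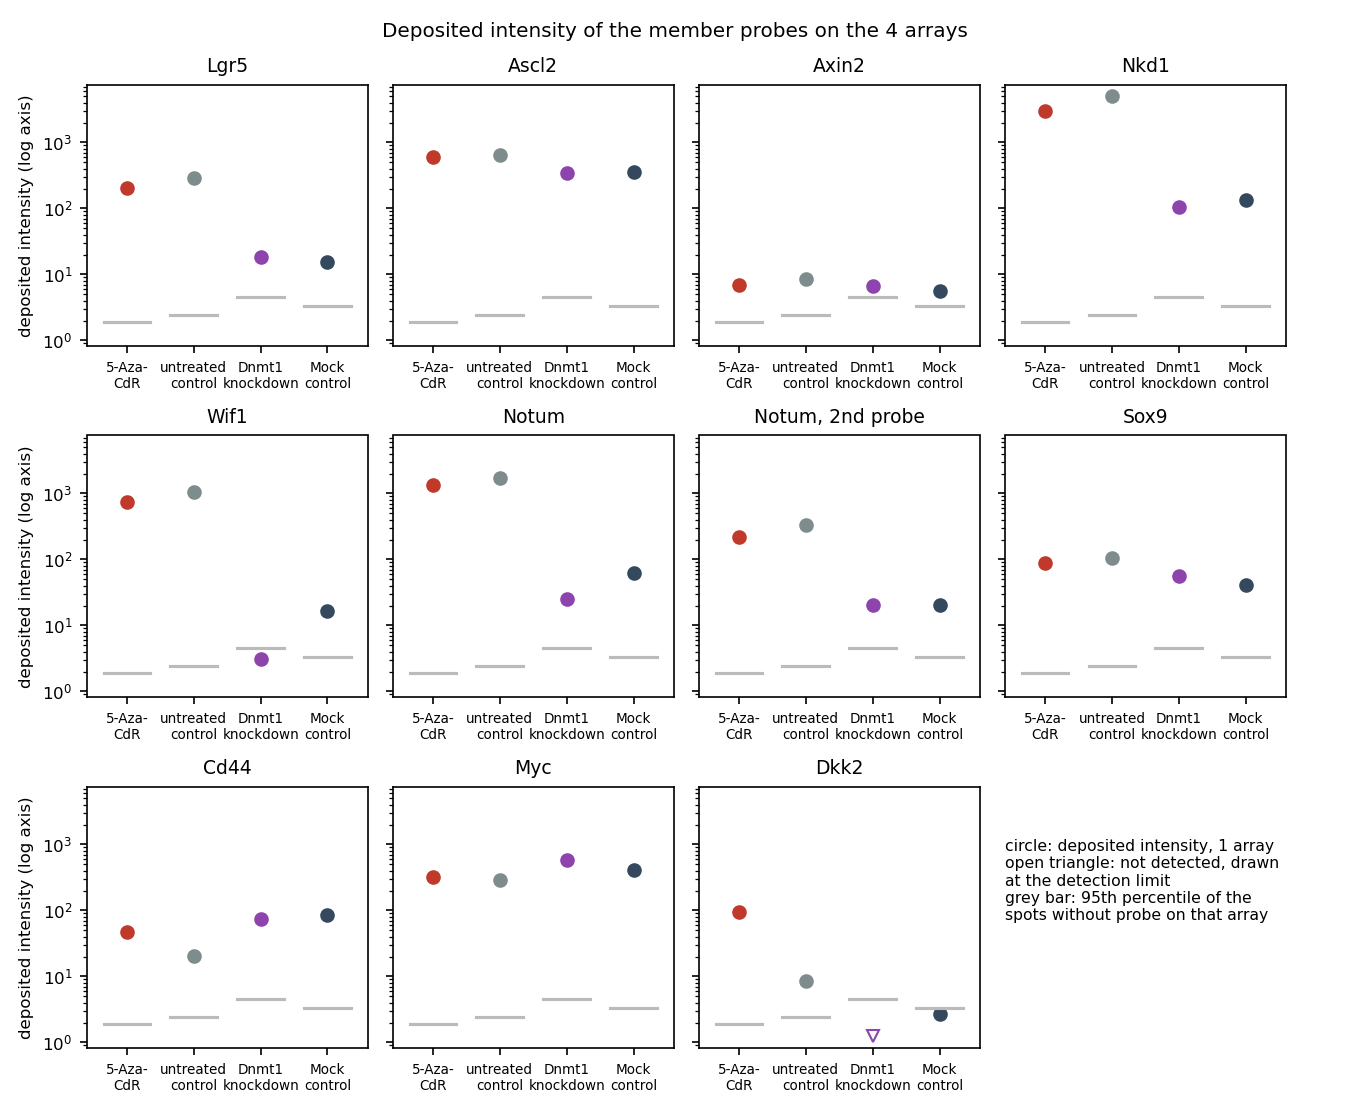
Deposited intensity (log axis) of the 11 probes, 1 panel each, in the 5-Aza-CdR, untreated control, Dnmt1 knockdown and Mock control organoids, 1 array per point, with the grey bars at the 95th percentile of probe-free spots. Nkd1, Wif1, both probes of Notum and Lgr5 are more than 10-fold lower in both lentiviral cultures than in both others, and Dkk2 with Dnmt1 knockdown is an open triangle because it was not detected.

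Nkd1, an intracellular brake that binds Dishevelled and is itself a Wnt target, had an intensity of 2996 after 5-Aza-CdR and 4977 in the untreated control. It had 106 with Dnmt1 knockdown and 133 in the Mock control. Both lentiviral cultures thus lay far below both others, and the step between the control cultures was a log2 ratio of -4.25, or 37.5-fold in the deposited intensities. In the ranking of 15141 genes from the lowest ratio of Mock control over untreated control, Nkd1 came at place 6. Within each comparison the differences were small beside that step, with log2 ratios of -0.64 for 5-Aza-CdR and -0.32 for Dnmt1 knockdown, neither of which reached 2-fold. Both were larger than the spread between probes of one gene. With the local background subtracted, however, the ratio with Dnmt1 knockdown was -0.009, within that spread.

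Wif1, a secreted protein that binds Wnt ligands and keeps them from their receptors, had an intensity of 735 after 5-Aza-CdR and 1062 in the untreated control, against 3.11 with Dnmt1 knockdown and 16.26 in the Mock control. Its ratio of Mock control over untreated control was -4.01 on the log2 scale and 65.3-fold in the deposited intensities, at place 8 from the lowest. The log2 ratio was -0.57 with 5-Aza-CdR. With Dnmt1 knockdown it was -0.52 in the normalized values, but a further 5.23-fold lower in the deposited intensities. The knockdown intensity of 3.11 lay below 4.48, the 95th percentile of probe-free spots on that array, so the size of this second step is poorly determined. Local background made up 57.0% of the Wif1 spot in the untreated control, and with it subtracted the ratio of Mock control over untreated control was -2.43, still past the limit.

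Notum, a secreted enzyme that strips the lipid from Wnt proteins and so inactivates them, gave a similar picture on its brighter probe, with 1343 after 5-Aza-CdR and 1707 in the untreated control, and 25.42 with Dnmt1 knockdown and 62.97 in the Mock control. The second probe had 220 after 5-Aza-CdR and 331 in the untreated control, and 20.34 with Dnmt1 knockdown and 20.08 in the Mock control. Both probes placed the gene lower in the Mock control than in the untreated control, by log2 ratios of -3.58 and -2.42, or 27.1-fold and 16.5-fold in the deposited intensities. The brighter one stood at place 15 from the lowest, and with the local background subtracted its log2 ratio was -2.69. With 5-Aza-CdR their log2 ratios were -0.36 and -0.66. With Dnmt1 knockdown the probes disagreed. The brighter one had a log2 ratio of -0.84, place 43 from the lowest of 14393 genes, and the second one -0.07, so a further decrease with the knockdown was seen on 1 probe of 2.

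Axin2, the scaffold of the destruction complex whose induction by beta-catenin makes it a standard Wnt readout, was dim on all arrays. Its intensity was 6.86 after 5-Aza-CdR and 8.50 in the untreated control, and 6.68 with Dnmt1 knockdown and 5.52 in the Mock control. All 4 values lay above the 95th percentile of probe-free spots, which ran from 1.90 to 4.48 over the arrays. The log2 ratios were -0.08, -0.02 and -0.04 for 5-Aza-CdR, Dnmt1 knockdown and Mock control over untreated control, each within the spread between probes of one gene. In the deposited values they were -0.31, 0.28 and -0.62, with the sign of the second turned, where the medians of all genes were 0.17, 0.19 and -0.50. The spread between probes was measured in the normalized values and cannot judge these ratios. No direction was therefore settled for Axin2. A decrease of the size seen in Nkd1 would have taken this probe below the detection limit, so the dim signal limits what can be seen of Axin2.

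Dkk2, a secreted protein that binds the LRP co-receptors and in many settings blocks Wnt signaling, behaved unlike the other brakes. It had an intensity of 96.06 after 5-Aza-CdR and 8.58 in the untreated control, 11.2-fold apart, and a log2 ratio of 1.31 in the normalized values, place 76 from the highest of 15640 genes. In the Mock control it had 2.66, within the range of probe-free spots, and with Dnmt1 knockdown it was not detected. No direction was therefore measured between these cultures. The higher level after 5-Aza-CdR thus had no counterpart in the knockdown culture. The size of this call varied with the correction, with log2 ratios from 1.26 to 3.48 in the deposited values and the other scalings, and it was 0.82, below the limit, when the local background of each spot was subtracted. Of 12 mesenchymal markers 1, Acta2, was called higher after 5-Aza-CdR, with intensities of 83.72 after 5-Aza-CdR and 12.07 in the untreated control. The intensities of the 12 summed to 165 after 5-Aza-CdR and 94.27 in the untreated control. Without Acta2 the other 11 summed to 80.8 after 5-Aza-CdR and 82.2 in the untreated control. These markers were dim, with a median intensity of the 12 of 5.185 after 5-Aza-CdR and 4.43 in the untreated control. Whether mesenchymal cells had a part in the Dkk2 value was not tested.

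The promoters of 6 of the 10 genes were found in the RefSeq table (GRCm38.p6), those of Ascl2, Axin2, Nkd1, Wif1, Cd44 and Dkk2. The 250 bases before the start site are shown 5′ to 3′ for 3 of them, Dkk2 as the gene that was higher after the demethylating drug, and Wif1 and Nkd1 as the pair of brakes with the largest difference between the control cultures. Capitals mark each CpG, the dinucleotide that DNA methyltransferases act on. The windows are chr3:132085042-132085291 on the plus strand for Dkk2, chr10:121033754-121034003 on the plus strand for Wif1 and chr8:88527383-88527632 on the plus strand for Nkd1. The start sites of Nkd1 and Dkk2 in the table lie inside the annotated spans of the genes, so other transcripts of both begin further upstream.
Dkk2: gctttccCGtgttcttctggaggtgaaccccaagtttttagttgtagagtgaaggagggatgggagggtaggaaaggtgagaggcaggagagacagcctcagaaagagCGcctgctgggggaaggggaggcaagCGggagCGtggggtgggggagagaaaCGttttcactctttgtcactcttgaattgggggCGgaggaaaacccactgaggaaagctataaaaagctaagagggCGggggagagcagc
Wif1: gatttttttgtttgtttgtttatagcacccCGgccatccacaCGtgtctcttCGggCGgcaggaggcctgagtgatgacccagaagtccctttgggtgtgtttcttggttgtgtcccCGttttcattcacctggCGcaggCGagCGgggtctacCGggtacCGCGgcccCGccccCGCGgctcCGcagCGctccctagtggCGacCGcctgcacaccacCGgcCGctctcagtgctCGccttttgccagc
Nkd1: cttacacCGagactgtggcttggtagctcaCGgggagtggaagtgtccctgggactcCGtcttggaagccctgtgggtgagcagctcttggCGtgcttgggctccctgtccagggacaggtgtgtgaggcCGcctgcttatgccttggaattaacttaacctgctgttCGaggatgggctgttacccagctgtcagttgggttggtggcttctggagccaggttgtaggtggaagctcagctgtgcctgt

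Wif1 and Nkd1, both lower in the Mock control, differed in CpG count. Wif1 held 21 CpGs in this window and Nkd1 only 6, and Dkk2 held 7. Axin2 held 24, Ascl2 19 and Cd44 5, against a median of 6 over 32851 promoter windows of the same length. A match to the TCF/LEF core, searched as TCAAAG on both strands, was found in 0 of the 6 windows and in 13.8% of all windows, and the longer form ATCAAAG, which contains it, in 0 of 6 and in 3.21%. The absence of these letters in a short window says nothing about binding by TCF/LEF factors elsewhere.

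**Figure D2:**
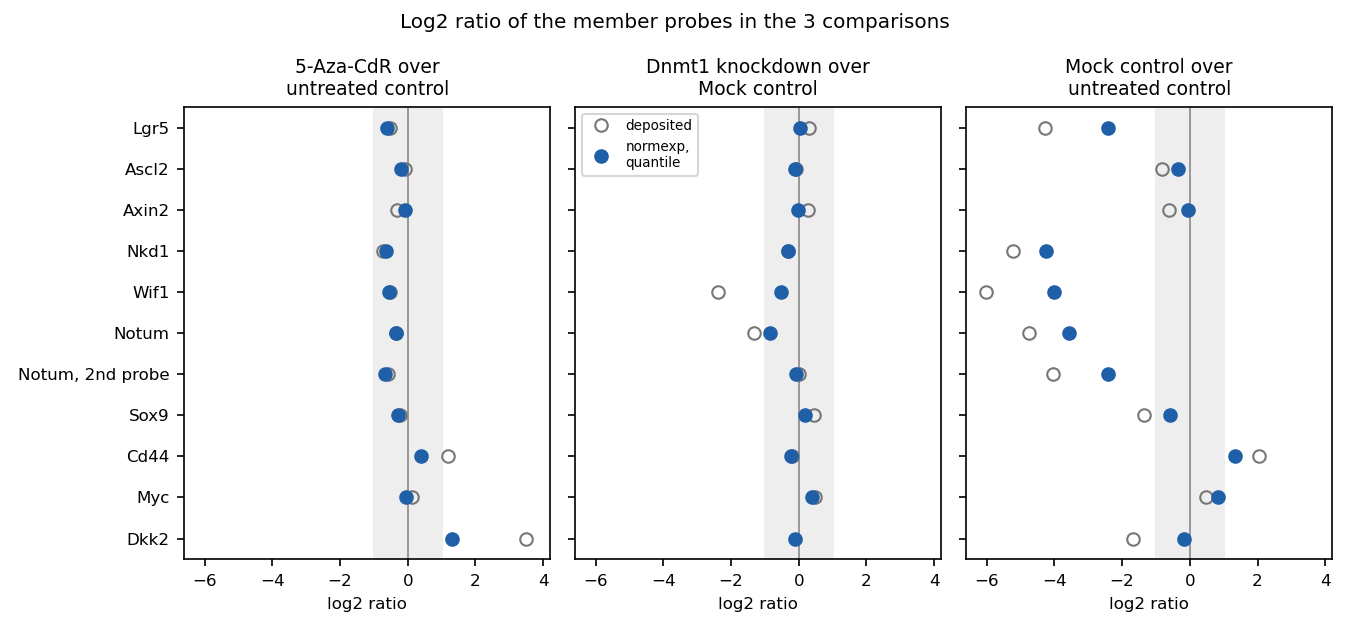
Log2 ratio of the 11 probes for 5-Aza-CdR over untreated control, Dnmt1 knockdown over Mock control and Mock control over untreated control, in normexp and quantile values (filled) and deposited values (open), with the range under 2-fold shaded. The probes of the right panel spread from -4.25 to 1.34 in the normalized values, and Dkk2 has no deposited ratio with Dnmt1 knockdown because it was not detected there.

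Lgr5, the R-spondin receptor that marks crypt base stem cells, had an intensity of 203 after 5-Aza-CdR and 292 in the untreated control, and of 18.55 with Dnmt1 knockdown and 15.19 in the Mock control. The log2 ratio was -2.42 for Mock control over untreated control, 19.2-fold in the deposited intensities and at place 48 from the lowest. It was -0.61 with 5-Aza-CdR, short of 2-fold, and 0.03 with Dnmt1 knockdown. The Lgr5 spot sat in an unusually bright surround. Its local background made up 94.8% of the spot signal in the untreated control, higher than at 97.9% of spots of like signal (within 1.2-fold), and 85.7% after 5-Aza-CdR. With the local background subtracted, the log2 ratio of Mock control over untreated control was -0.18 and that of 5-Aza-CdR 0.17, so the Lgr5 values hold only if that surround does not reach into the spot. Whether the subtraction also removed signal of the Lgr5 spot itself was not tested. Nkd1 and the second Notum probe do not share this limit in the untreated control, where their local background was 2.88% and 9.07% of the spot. In the Mock control it was 53.5% and 55.8%. Among 13453 genes detected on all arrays, the closest to Lgr5 over the 4 arrays by Euclidean distance of centred log2 values were 1110002E23Rik (0.08), Lect2 (0.11), Phpt1 (0.15), Pgcp (0.18) and Sh3bgrl3 (0.22).

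**Figure D3:**
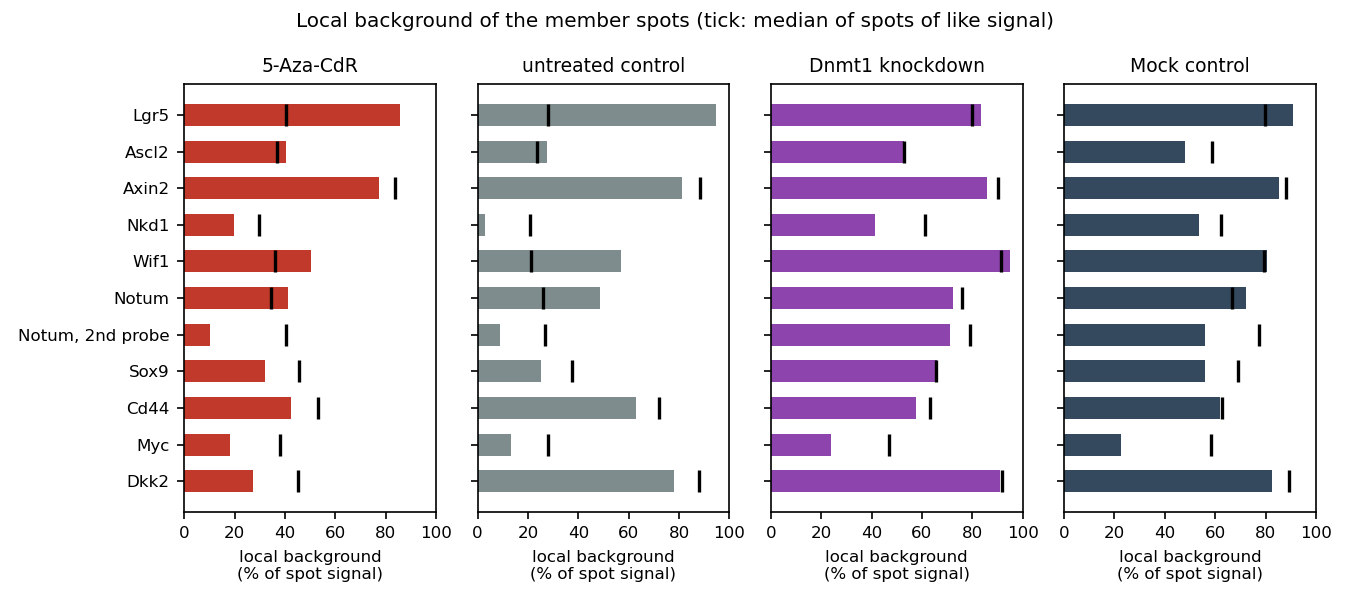
Local background of each member spot as a percentage of its signal (bars) in the 5-Aza-CdR, untreated control, Dnmt1 knockdown and Mock control arrays, with ticks at the median of spots of like signal on the same array. In the untreated control the Lgr5 bar reaches 94.8% where like spots have a median of 28.0%, while Nkd1 is at 2.88%.

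Ascl2, the transcription factor that specifies the crypt stem cell state, was not called in any comparison. It had an intensity of 599 after 5-Aza-CdR and 634 in the untreated control, and of 338 with Dnmt1 knockdown and 357 in the Mock control. Its log2 ratios were -0.21, -0.12 and -0.34 for 5-Aza-CdR, Dnmt1 knockdown and Mock control over untreated control. The first turned to 0.21 under median scaling and the last to 0.02 with the local background subtracted. Sox9, a transcription factor of crypt progenitors and Paneth cells, had 89.59 after 5-Aza-CdR and 105 in the untreated control, and 55.58 with Dnmt1 knockdown and 41.10 in the Mock control. Its log2 ratios were -0.29, 0.18 and -0.58. The first was -0.003 under median scaling, and the second turned to -0.08 with the local background subtracted. Sox9 was not called either, although it was 2.56-fold lower in the Mock control than in the untreated control in the deposited intensities. On that scale the median of all genes was also lower there, by a log2 ratio of -0.50.

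Cd44, a hyaluronan receptor and a Wnt target of crypts and adenomas, went the other way. It had an intensity of 46.68 after 5-Aza-CdR and 20.69 in the untreated control, and of 73.41 with Dnmt1 knockdown and 84.61 in the Mock control. The log2 ratio of Mock control over untreated control was 1.34, 4.09-fold in the deposited intensities, and it was 0.81, below the limit, with the local background subtracted. With 5-Aza-CdR it was 0.40, or 2.26-fold in the deposited intensities, and with Dnmt1 knockdown -0.23. Myc, the proto-oncogene through which much of the effect of Apc loss in the intestine runs, had 321 after 5-Aza-CdR and 293 in the untreated control, and 574 with Dnmt1 knockdown and 412 in the Mock control. Its log2 ratio was -0.05 with 5-Aza-CdR, a sign that turned to 0.38 under median scaling, to 0.03 under 75th percentile scaling and to 0.13 in the deposited values. It was 0.40 with Dnmt1 knockdown and 0.85 for Mock control over untreated control, both short of 2-fold, although the second was 1.29 with the local background subtracted. Cd44 and Myc were therefore the only members with higher intensities in both lentiviral cultures than in both others.

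Seen over the 4 cultures, 7 of the 10 genes were lower in both lentiviral cultures than in both others in the normalized values, where 37.2% of 15716 genes were, and 2 were higher, where 32.4% were. At a distance of at least 2-fold, 4 were lower, namely Lgr5, Nkd1, Wif1 and Notum, against 1.85% of all genes, and 0 were higher, against 1.9%. In the deposited intensities 8 were lower, where 53.8% of all genes were, and 2 higher, where 16.6% were. At least 2-fold lower on that scale were 5, these 4 and Dkk2, against 14.3% of all genes, and 0 were higher, against 3.61%. The 3 feedback inhibitors and Lgr5 were thus past 2-fold on both scales and Dkk2 on one, while Ascl2 and Sox9 were lower by less than 2-fold in the normalized values. The place of Dkk2 rests on a Mock control intensity of 2.66, within the range of probe-free spots, and on a filled-in knockdown value. For Lgr5 the log2 ratio of Mock control over untreated control was -0.18 with the local background subtracted.

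**Figure D4:**
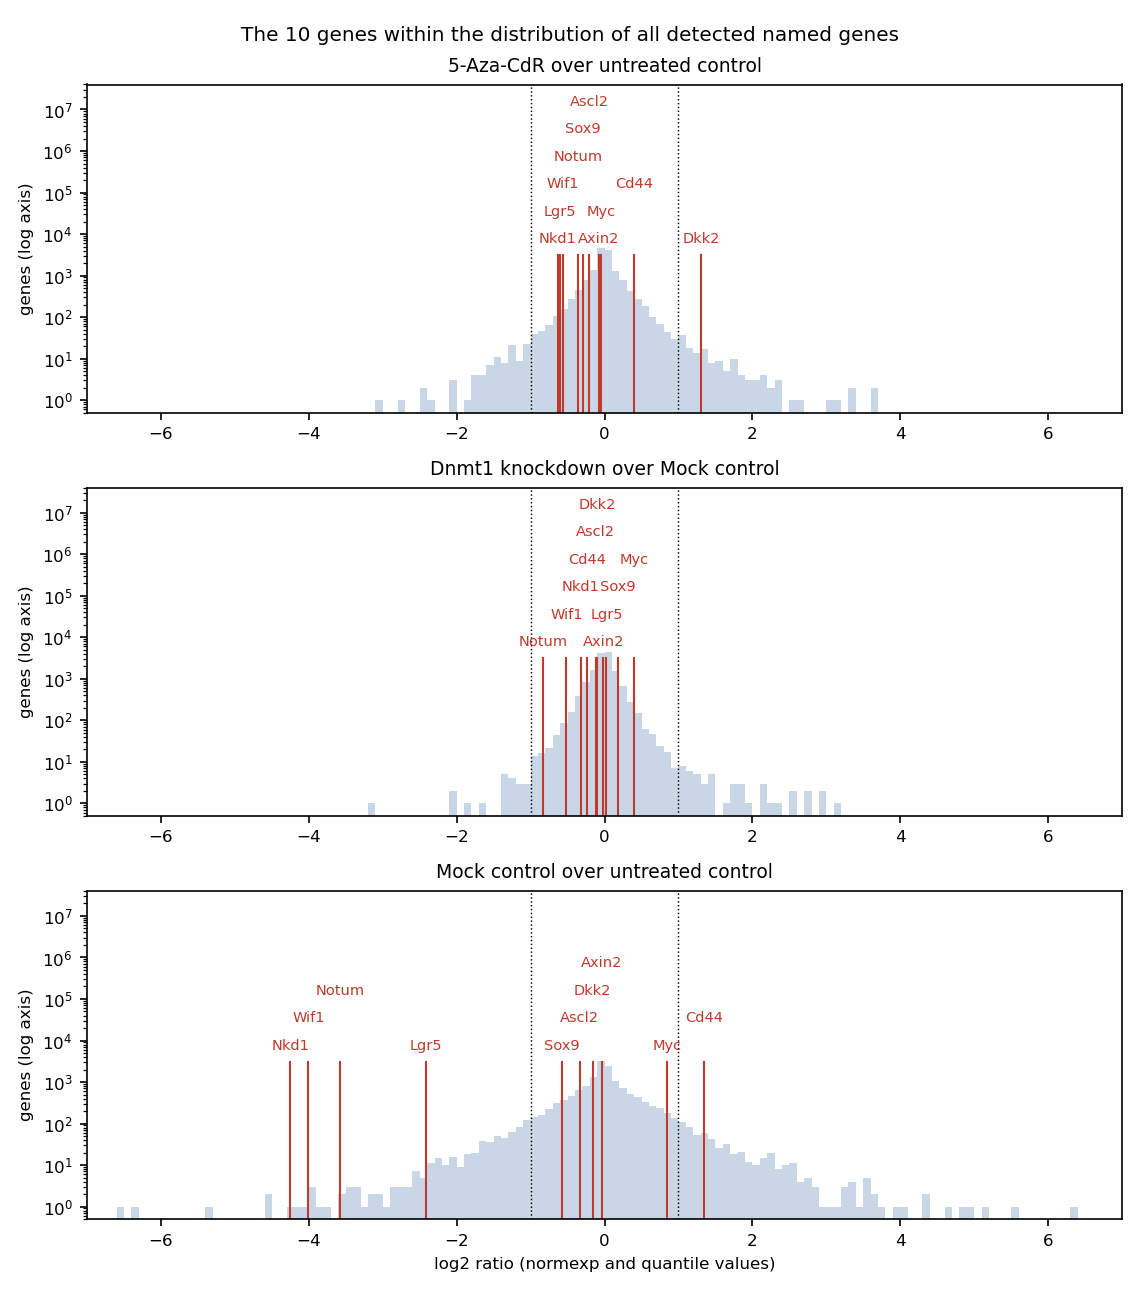
Number of detected named genes (log axis) by log2 ratio in normexp and quantile values for 5-Aza-CdR over untreated control, Dnmt1 knockdown over Mock control and Mock control over untreated control, with the 10 genes as red lines and 2-fold limits dotted. Nkd1, Wif1 and Notum lie past the 2-fold limit on the left only in the bottom panel, at -4.25, -4.01 and -3.58, while Notum at -0.84 lies in the left tail of the middle panel within that limit.

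The rest of the pathway was taken from 7 lists of ligands, receptors, the beta-catenin core, TCF/LEF partners, inhibitors, other target genes and intestinal stem cell genes, with 147 genes on the array beside the 10. With Dnmt1 knockdown 0 of 135 detected genes were called, with a median log2 ratio of -0.01, where 0.327% and 0.139% of all genes were called higher and lower. In the deposited values 9 were higher and 1 lower there, where 5.91% and 0.813% of all genes were. With the blank mean subtracted 4 were higher and 6 lower, where 439 and 396 of all 14393 genes were. After 5-Aza-CdR 4 of 143 were called higher and 3 lower, with a median of -0.0070, where 0.921% and 0.607% of all genes were called. In the deposited values 16 were higher and 5 lower, where 6.05% and 2.09% of all genes were. With the blank mean subtracted 12 were higher and 6 lower, where 596 and 423 of all 15640 genes were. These counts therefore depend on how dim probes are treated. Among 23 detected ligand and R-spondin genes 2 were higher. Wnt10a, a ligand, had an intensity of 438 after 5-Aza-CdR and 85.80 in the untreated control, a log2 ratio of 1.75. Wnt6, another ligand, had 1044 after 5-Aza-CdR and 445 in the untreated control, a log2 ratio of 1.00. The other called genes, named because of their values, were Gkn3 (1190003M12Rik) and the ion cotransporter Slc12a2, both higher, and 2210407C18Rik, the urea transporter Slc14a1 and Vegfa, all lower. None of 16 receptors, 17 core genes, 15 TCF/LEF partners or 17 inhibitors was called after 5-Aza-CdR in the normalized values. In the deposited values 2 receptors were higher and 2 lower, and 2 inhibitors were higher. Sfrp2, a secreted Frizzled-related inhibitor named because of its values, had an intensity of 28.53 after 5-Aza-CdR and 0.91 in the untreated control, the second within the range of probe-free spots. Its log2 ratio was 0.68 in the normalized values and 4.97 in the deposited ones, so its scales parted as those of Dkk2 did.

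Between the control cultures 18 of 140 pathway and stem genes were lower in the Mock control and 7 higher, with a median of -0.08, where 3.84% and 3.8% of all genes were called. Of 30 intestinal stem cell genes 10 were lower and 2 higher. Igfbp4, a binding protein of insulin-like growth factors, had an intensity of 23.83 in the Mock control and 1233 in the untreated control, a log2 ratio of -3.98. Tnfrsf19 (Troy), a receptor of crypt stem cells, had 68.64 in the Mock control and 1045 in the untreated control, a log2 ratio of -2.88. Noxa1, an activator of NADPH oxidase, had -2.14 and E030025L21Rik (Agr3) had -1.79. Of 34 other Wnt targets 6 were lower and 4 higher, a balance that was 15 lower and 2 higher in the deposited values and 2 lower and 5 higher with the local background subtracted. Besides Tnfrsf19 these included Ets2, a transcription factor (-1.56), and Mmp7, a matrix protease of Paneth cells (-1.45), as lower, and Plaur, the urokinase receptor (2.55), as higher. Among 15 TCF/LEF partners 3 were lower, Aes (-2.77), the co-repressor Tle3 (-1.07) and the DNA-binding factor Lef1 (-1.02). Lef1 had an intensity of 1.52 in the Mock control, within the range of probe-free spots, and 45.76 in the untreated control. Of 16 inhibitors 1 was lower, Rnf43, the ubiquitin ligase that removes Frizzled (-1.10). Wnt6 (-2.37) and the receptor Lgr6 (-1.40) were lower too, and the beta-catenin core had 1 called gene, the tankyrase Tnks (1.40). In the deposited intensities 59 of the 140 were at least 2-fold lower and 9 higher, where 26.6% and 7.1% of all genes were. With the local background subtracted 12 were lower and 7 higher, where 572 and 503 of all 15141 genes were. Of these, 7 lower and 1 higher were stem cell genes, and the TCF/LEF partners had 1 lower and the inhibitors 0.

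All 7 epithelial markers with a named probe were detected on every array, including Tacstd1 (Epcam) with intensities of 7199 after 5-Aza-CdR, 7627 in the untreated control, 2684 with Dnmt1 knockdown and 3466 in the Mock control. By the same detection limit, 4 to 8 of 8 endothelial, 9 to 12 of 12 mesenchymal and 8 to 10 of 12 immune markers were detected. The 95th percentile of probe-free spots is a higher limit. Above it were 6 to 7 of 7 epithelial, 2 to 6 of 8 endothelial, 3 to 10 of 12 mesenchymal and 6 to 8 of 12 immune markers. Over the arrays the endothelial intensities summed to between 21.90 and 45.35, the mesenchymal ones to between 50.77 and 165 and the immune ones to between 362 and 580. Each sum depends on how strongly its probes bind, so sums of different cell types are not compared. The immune sum was carried by Cd14 (169 to 318), Cd68 (67.51 to 194) and Csf1r (31.90 to 51.94), while Cd3g and Itgam were not detected on any array and Ptprc had 2.41 to 4.84. Markers of Paneth cells, which supply Wnt ligands to stem cells and depend on Wnt signaling themselves, moved with the difference between the control cultures. Of 15 such markers listed, 7 had a named probe. All 7 were called lower in the Mock control, where 3.84% of all genes were. Their intensities summed to 4435 in the Mock control and 44332 in the untreated control, and Mmp7 is also on the list of Wnt targets. With 5-Aza-CdR 1 of the 7 was lower, where 0.607% of all genes were, and with Dnmt1 knockdown 1 was higher, where 0.327% were. Of all genes, 0.921% were called higher after 5-Aza-CdR and 3.8% in the Mock control. The same shares apply to the lists below, which also count only markers with a named probe. Markers of other epithelial lineages moved as well. Of 7 goblet cell markers 2 were lower after 5-Aza-CdR, Tff3 (-2.03) and Spink4 (-2.73), 1 was higher with Dnmt1 knockdown, Tff3 (1.11), and 2 were lower in the Mock control, Spink4 (-3.37) and Agr2 (-1.25). Of 9 enterocyte markers the fatty acid binding proteins Fabp1 (3.53) and Fabp2 (3.26) were higher and Anpep (-1.15) lower in the Mock control, and Fabp1 (-1.04) was lower after 5-Aza-CdR. Of 11 enteroendocrine and tuft cell markers Neurog3 was lower after 5-Aza-CdR (-1.27) and in the Mock control (-1.29), Sct was lower in the Mock control (-1.56) and Chgb was higher with Dnmt1 knockdown (1.25). Of 9 genes of regenerative epithelium, a list written with earlier results of these arrays known, 3 were higher and 1 lower in the Mock control, and 5 of 8 detected were higher after 5-Aza-CdR. The part of these cell states in the values of the 10 genes was not tested. Dnmt1 itself, the target of the shRNA, had an intensity of 71.68 with Dnmt1 knockdown and 126 in the Mock control, a log2 ratio of -0.68, and of 368 after 5-Aza-CdR and 239 in the untreated control, a log2 ratio of 0.39.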

How the data were processed

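Total RNA of 4 ApcMin tumor organoid cultures, 1 per group, was amplified, labelled with Cy5 and hybridized to Toray arrays. The scanner files hold uncorrected median spot intensities at 635 nm, as deposited. The intensities the authors deposited in the value table were recomputed as a factor (0.554 to 0.829) times the spot signal minus the mean of 2736 blank spots, with 5% trimmed at each end. Values at or below that mean plus 2 SD were mostly left empty. Spot signals were corrected with normexp (offset 50, no local background) and quantile normalized with limma 3.58.1 in R 4.3.3. Later steps used Python 3.11.15, pandas 2.3.3, numpy 2.4.6 and matplotlib 3.10.9. For genes with several probes (174) the brightest was used. Per array, 21797 probes were detected after 5-Aza-CdR and 20892 in the untreated control, and 19890 after Dnmt1 knockdown and 19042 in the Mock control. Precision is limited by the number of arrays.

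A call needed a 2-fold difference and detection, above the blank mean plus 2 SD, on the brighter array. The steps were tested on simulated data. Changes were put only into brighter probes of the 5-Aza-CdR array, so recovery for dim probes and between the control cultures was not tested. The 10 genes and the gene lists were chosen with earlier results of these data known. Named beside the 10 were Dnmt1, up to 4 called genes of each pathway list with the largest change, and the 5 genes nearest to Lgr5. As alternatives, an offset of 16 was tried, as were the deposited values, subtraction of the blank mean, median and 75th percentile scaling, quantiles within each comparison, other detection filters, fold limits of 1.5 and 3 and the mean over probes. Subtraction of the local background and detection by the spots without probe were added after the data had been seen. Symbols were updated through RefSeq of GRCm38.p6, and 6842 probes without a symbol here were not used.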

Additional observations from a re-analysis of the deposited data

Results flagged for a closer look

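Dkk2 was singled out because its fitted log2 ratios had opposite signs in the comparisons with 5-Aza-CdR and Dnmt1 knockdown. It had a log2 ratio of 1.31 for 5-Aza-CdR over untreated control and -0.10 for Dnmt1 knockdown over Mock control, a difference of -1.41 for the knockdown minus 5-Aza-CdR. The difference was not tested, since each comparison has 1 array per group, and no direction was measured with the knockdown. There the Mock control value lay within the range of probe-free spots and the knockdown value was not detected, and the ratio was smaller than the spread of 0.15 between probes of one gene.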

How the results depend on the processing

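With 1 array per group no replicate could be left out, and no paired analysis was possible because no group has a second array. The 4 members called lower in the Mock control than in the untreated control were 4 under most alternatives, 5 with the blank mean subtracted, 6 in the deposited values and 3 after subtraction of the local background, which was added once the data had been seen. Lgr5 was lost there, at a log2 ratio of -0.18. The count called lower with Dnmt1 knockdown was 0, but 3 in the deposited values, 2 with the offset at 16, 3 with the blank mean subtracted and 1 at a 1.5-fold limit. With 5-Aza-CdR the count called higher was 1, but 2 in the deposited values, 0 at a 3-fold limit and 0 with the local background subtracted, and 2 were lower at a 1.5-fold limit. The count called higher in the Mock control was 1, but 2 at a 1.5-fold limit and 0 at a 3-fold limit. With the local background subtracted the count was also 1, but Cd44 (0.81) was no longer past the limit and Myc (1.29) was. The median log2 ratio of the members for Mock control over untreated control was -0.46, but -1.52 in the deposited values and -1.04 with the blank mean subtracted. With 5-Aza-CdR it was -0.25, but -0.018 after median scaling and -0.022 after subtraction of the local background. No called member changed sign under any of these settings. Over all named genes, 144 were called higher with 5-Aza-CdR (41 at a 3-fold limit to 947 in the deposited values) and 95 lower (18 at a 3-fold limit to 423 with the blank mean subtracted). With Dnmt1 knockdown 47 were higher (20 to 851) and in the Mock control 575 (204 to 1768). The count called lower with Dnmt1 knockdown was 20 and ranged from 5 at a 3-fold limit to 396 with the blank mean subtracted. The count lower in the Mock control was 582 and ranged from 188 at a 3-fold limit to 4026 in the deposited values. Median scaling moved the share of calls that were higher with 5-Aza-CdR to 86.8%, against 60.3%, and for Mock control over untreated control to 33.9%, against 49.7%. In the deposited values these shares were 74.3% and 21.1%, and with Dnmt1 knockdown 87.9%, against 70.1%, which was 56.6% with the offset at 16, 52.6% with the blank mean subtracted and 35.1% after subtraction of the local background. With 75th percentile scaling the median of all genes was -0.34 with 5-Aza-CdR. The dim probes of Axin2 and Dkk2 limit what can be seen of those genes.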
